A study of Homo sapiens with 9 samples.

Results

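Expression of 10 transcription factors that pattern the early neural plate was followed in WA09 cells, an established line of human embryonic stem cells. The factors were OTX2, SIX3, HESX1, LHX2 and LHX5, which mark anterior neural tissue, IRX3, IRX5 and OLIG3, which mark posterior or dorsal neural tissue, and PAX6 and SOX1, which mark neural progenitors more broadly. Every probe set that the array's annotation assigns to exactly 1 gene was taken where that gene was 1 of the 10. This gave 17 probe sets of 41091 with a single gene, and all 10 genes of the 19775 genes compared. Of the 10 genes, 5 had 1 probe set and 5 had several.

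The damage arrays held cells exposed for 5 h to DOX, that is doxorubicin, a drug that traps topoisomerase II and leaves double-strand breaks. The differentiating arrays held cells given retinoic acid (RA, the active derivative of vitamin A) at 1 µM for 2 days in medium without added FGF, and the pluripotent arrays held untreated cells. Each of these conditions had 3 arrays, all cells were between passages 32 and 38, and the series set the p53 response to DNA damage beside that to differentiation. The RA arrays therefore differed from the pluripotent arrays in growth factor as well as in RA, which cannot be told apart, and the DOX dose is not given in the labels. The labels do not say which culture format (mouse feeder cells or feeder-free matrix) gave each array, nor whether replicate arrays were separate cultures. The p-values therefore measure only the spread between arrays, and that spread may be technical.

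Before a neural plate forms, OTX2 is already present in pluripotent cells, where it takes part in the exit from naive pluripotency, and it later specifies forebrain and midbrain. HESX1 and SIX3 mark the anterior end of the plate, and RA, together with WNT and FGF signals, imposes posterior identity on it. IRX3 and IRX5 are expressed behind the anterior forebrain, and OLIG3 in dorsal progenitors of the hindbrain and spinal cord. In mouse, PAX6 and SOX1 come on as cells become neural.

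Values are normalised log2 intensities, and levels are given on that scale. Array medians over all probe sets were 4.62 to 4.68, and the number of arrays, not a count of molecules, limits the precision. A level below that median is not shown to be above background. Differences are log2 changes with the standard error (SE) from limma, and a gene was called where limma's p, adjusted over all 19775 genes by the Benjamini-Hochberg method, was under 0.05. The treatments showed in their known target genes. CDKN1A and MDM2, targets of p53, changed by 3.71 and 2.02 after DOX, and RARB and CYP26A1, targets of RA, by 2.21 and 1.64 after RA. CDKN1A and MDM2 also rose after RA, by 0.92 and 0.42, but MDM2 was at 0.14 and not called with the mean of all its probe sets (adjusted p = 0.34). Its RA call was also lost without the second differentiating or the first pluripotent array. Of 10 markers of pluripotent cells 8 were measured, and each of the 8 was above the array median on all 9 arrays.

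After 2 days of RA, 4 of the 10 factors changed. OTX2 and HESX1 fell, and OLIG3 and IRX3 rose. After 5 h of DOX, 1 of the 10 changed, which was HESX1, and it fell. The other 6 factors, SIX3, LHX2, LHX5, IRX5, PAX6 and SOX1, were called in none of the 3 comparisons. For reading these counts, 6.47% of all genes were called after RA and 15.3% after DOX. The factors were proposed with results of these arrays in view, so the counts describe them and are not a test of the group.

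**Figure D1:**
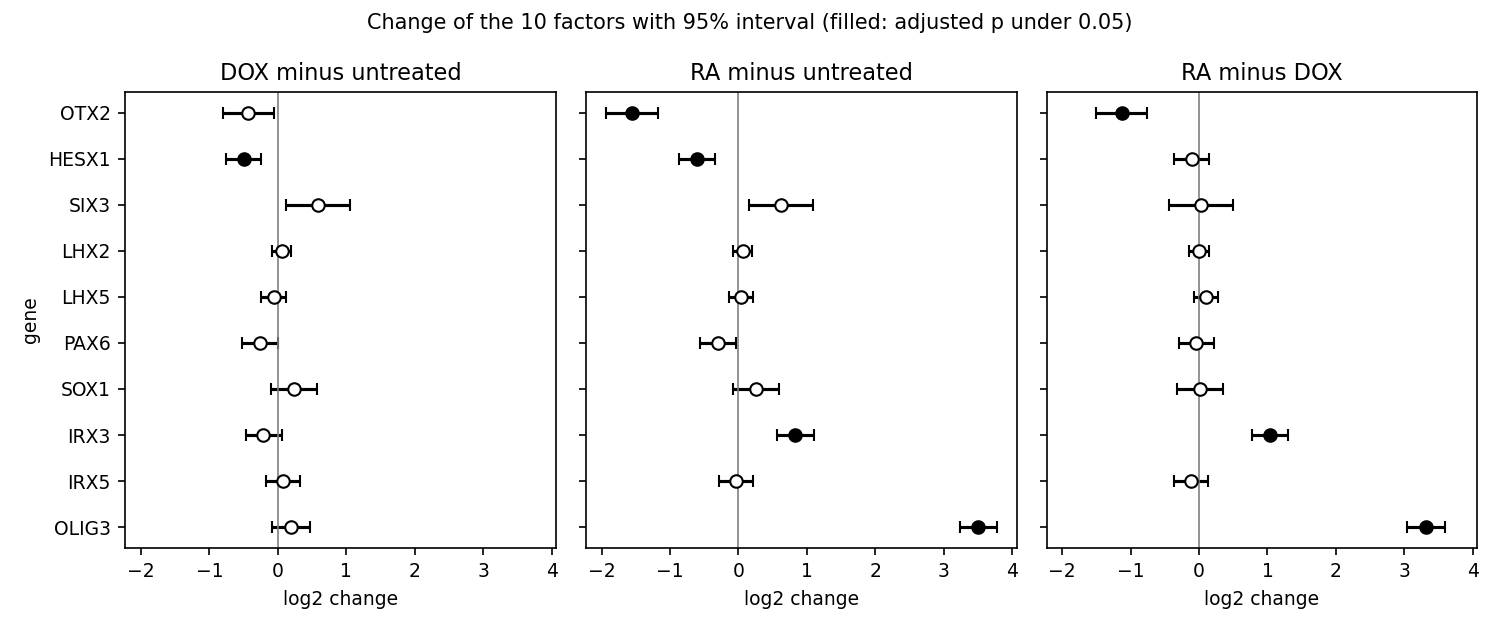
Log2 change of each of the 10 factors (rows) in the 3 comparisons (panels), with its 95% interval from limma; filled points have an adjusted p under 0.05. OTX2 and HESX1 lie left of 0 and IRX3 and OLIG3 right of it after RA, and the other 6 factors have open points in every panel.

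The promoter windows of OTX2, HESX1 and OLIG3 are shown first, since these were called on arrays of cells given RA, whose receptors bind DNA directly. HESX1 was also called after DOX, and RA was given in medium without added FGF. Whether RA receptors act at these windows was not tested. The windows hold 250 bases before and 50 after an annotated start, from RefSeq on build GRCh38.p14. Of the 10 genes 6 had a window, 16 windows in all. IRX3, IRX5, SIX3 and LHX5 had none. Capitals mark each match on either strand to AGTTCA (a core motif of retinoid receptors), TAATTA (a motif of many homeodomain proteins) and TATAAA (the TATA box), and no matches of different motifs overlap in these windows. OTX2 is shown at chr14:56810430-56810729, HESX1 at chr3:57199929-57200228 and OLIG3 at chr6:137494345-137494644, all on the minus strand and written 5′ to 3′ along the gene.
OTX2: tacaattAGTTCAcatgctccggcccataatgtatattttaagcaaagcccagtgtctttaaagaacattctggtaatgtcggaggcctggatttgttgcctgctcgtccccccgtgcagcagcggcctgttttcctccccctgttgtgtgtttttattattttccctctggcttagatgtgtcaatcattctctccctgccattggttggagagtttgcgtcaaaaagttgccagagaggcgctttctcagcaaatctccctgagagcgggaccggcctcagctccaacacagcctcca
HESX1: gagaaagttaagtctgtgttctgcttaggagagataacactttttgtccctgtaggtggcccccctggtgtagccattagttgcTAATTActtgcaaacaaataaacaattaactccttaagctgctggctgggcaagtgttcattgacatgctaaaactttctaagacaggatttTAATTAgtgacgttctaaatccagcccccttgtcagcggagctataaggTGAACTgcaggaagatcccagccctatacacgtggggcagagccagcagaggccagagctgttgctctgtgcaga
OLIG3: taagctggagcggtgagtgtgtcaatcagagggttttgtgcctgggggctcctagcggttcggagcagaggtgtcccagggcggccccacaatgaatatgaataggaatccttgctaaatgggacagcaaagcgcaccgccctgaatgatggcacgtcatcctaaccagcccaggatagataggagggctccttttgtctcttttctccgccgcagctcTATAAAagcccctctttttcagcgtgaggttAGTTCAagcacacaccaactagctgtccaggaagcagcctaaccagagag

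In the OLIG3 window AGTTCA begins at position 1, the annotated start, and TATAAA at −31. The HESX1 window holds TAATTA at −166 and −74 and AGTTCA at −25, on the opposite strand. The OTX2 window holds AGTTCA at −243. For OTX2 and HESX1 the window shown is the one with matches. The further windows of OTX2 and HESX1, at their alternative starts, held none of the motifs searched, and of the 9 windows of PAX6, a gene not called, 2 held AGTTCA. Among all 35116 windows of this length 10.4% held AGTTCA, 4.84% TAATTA and 11.5% TATAAA. Other motifs searched were AGGTCA, the consensus retinoid core (13.8% of all windows), TAATCC, the motif of OTX2 itself (6.36%), and the p53 decamer (6.63%). None of the windows of OTX2, HESX1 or OLIG3 held any of these. A match of letters is a description and not a binding site.

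OTX2, the homeobox factor of forebrain and midbrain, was well above the array median in every condition and fell after RA on both of its probe sets. On the brighter probe set, which represents the gene here, the level was 10.37, 10.28 and 10.16 on the damage arrays and 8.83, 8.95 and 9.62 on the differentiating arrays, against 10.70, 10.58 and 10.81 on the pluripotent arrays. The 3 conditions did not overlap, and the third differentiating array was the highest of its condition. The means were 10.27 ± 0.11 after DOX and 9.13 ± 0.42 after RA, against 10.69 ± 0.12 in pluripotent cells (SD, n = 3 arrays each). After RA the change was −1.56 ± 0.17 (SE, limma adjusted p = 0.00022), or 2.95-fold lower, the 28th lowest value of 19775 genes. Since these are bulk samples, fewer cells with OTX2 and less OTX2 RNA per cell cannot be told apart.

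The dimmer OTX2 probe set read 8.28, 8.27 and 7.82 on the damage arrays and 6.38, 7.23 and 7.53 on the differentiating arrays, against 8.75, 8.84 and 8.91 on the pluripotent arrays. The order of the conditions was that of the brighter probe set, again with no overlap, and the differentiating arrays spread widest. The change after RA was −1.79 ± 0.24 (SE, limma adjusted p = 0.0019 over all 54613 probe sets). After DOX neither probe set passed limma's test. The changes were −0.43 ± 0.17 on the brighter (adjusted p = 0.13, 95% interval −0.80 to −0.05) and −0.71 ± 0.24 on the dimmer (adjusted p = 0.12 over all probe sets). On the brighter probe set the DOX change was called without the third differentiating array (adjusted p = 0.010) and when only the pair of conditions compared entered the fit (adjusted p = 0.019), at −0.43 in each case.

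HESX1, a homeodomain repressor needed for the forebrain and pituitary in mouse, fell in both comparisons, each of which uses the same pluripotent arrays. Like OTX2, it was above the array median on all 9 arrays, so it fell from a level already present in pluripotent cells. Its single probe set read 7.55, 7.50 and 7.59 on the damage arrays and 7.22, 7.50 and 7.60 on the differentiating arrays, against 7.91, 7.94 and 8.29 on the pluripotent arrays. All treated arrays lay below all pluripotent arrays, while the damage and differentiating arrays overlapped. The change was −0.50 ± 0.12 after DOX (SE, limma adjusted p = 0.015) and −0.61 ± 0.12 after RA (adjusted p = 0.010). In linear terms HESX1 was 1.41-fold lower after DOX and 1.52-fold lower after RA. Without the second damage array the DOX change was −0.48 and lost its call (adjusted p = 0.054).

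**Figure D2:**
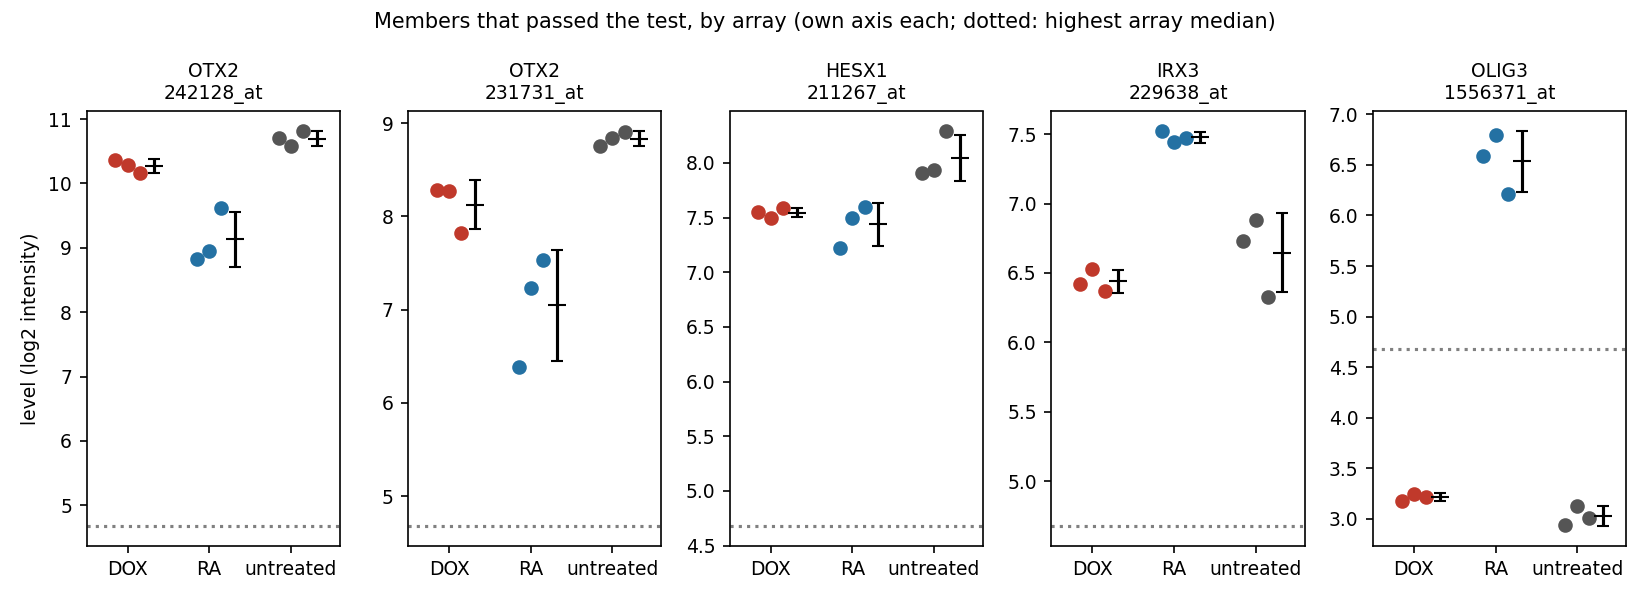
Level (log2 intensity) on each array for the probe sets of the 4 factors called in any comparison: DOX, RA and untreated cells from left to right, with the mean and SD (n = 3 arrays) beside the points and the highest array median dotted; each panel has its own axis. OTX2 is lowest with RA on both probe sets, with the DOX arrays between RA and untreated, HESX1 is lower with both treatments, and IRX3 and OLIG3 are highest with RA.

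OLIG3, the basic helix-loop-helix factor of dorsal hindbrain and spinal cord progenitors, had the strongest change of the 10. Its single probe set read 3.18, 3.25 and 3.22 on the damage arrays and 6.59, 6.80 and 6.21 on the differentiating arrays, against 2.94, 3.13 and 3.01 on the pluripotent arrays. Only the differentiating arrays lay above the array median. The change after RA was 3.50 ± 0.13 (SE, limma adjusted p = 7.4e-08), an 11.4-fold difference that may be a lower bound because the pluripotent level is not shown to be above background. It ranked 7th from the top among 19775 genes. After DOX the value was 0.19 ± 0.13 (adjusted p = 0.39, 95% interval −0.09 to 0.47), and although the damage arrays all lay above the pluripotent ones, both groups were below the array median.

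IRX3, an Iroquois homeobox factor of the caudal neural plate and of neural tube progenitors, was above the array median on all 9 arrays and rose after RA. Its single probe set read 6.42, 6.53 and 6.37 on the damage arrays and 7.52, 7.44 and 7.47 on the differentiating arrays, against 6.73, 6.88 and 6.33 on the pluripotent arrays. The differentiating arrays lay close together above all others, and the third pluripotent array was the lowest of the 9. The change after RA was 0.83 ± 0.12 (SE, limma adjusted p = 0.0017), or 1.78-fold. After DOX it was −0.21 ± 0.12 (adjusted p = 0.31), with overlapping arrays. Without the third pluripotent array it was −0.37 after DOX and passed the test (adjusted p = 0.014).

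IRX5, a paralog of IRX3 from the same Iroquois cluster on chromosome 16, was not called in any comparison. Its single probe set read 4.24, 4.23 and 4.16 on the damage arrays and 3.96, 4.10 and 4.21 on the differentiating arrays, against 4.16, 4.34 and 3.87 on the pluripotent arrays. The conditions overlapped throughout, and all 9 values were below the array median. The change after RA was −0.04 ± 0.11 (SE, limma adjusted p = 0.92, 95% interval −0.28 to 0.21), at a level not shown to be above background.

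Of the anterior factors other than OTX2 and HESX1, none passed the test. SIX3, a homeobox factor that holds WNT signalling down in the mouse forebrain, came nearest. On its brightest probe set it read 4.72, 4.08 and 3.77 on the damage arrays and 4.13, 3.97 and 4.56 on the differentiating arrays, against 3.6, 3.62 and 3.6 on the pluripotent arrays. All treated arrays lay above the pluripotent ones, and 8 of the 9 values were below the array median. The value was 0.59 ± 0.21 after DOX (SE, limma adjusted p = 0.094) and 0.62 ± 0.21 after RA (adjusted p = 0.14). The other probe sets of SIX3 gave 0.25 and 0.06 after DOX and 0.44 and 0.01 after RA, also not called. The DOX value of SIX3 was 0.80 and called without the third damage array (adjusted p = 0.030). The RA value, at 0.62, was called without the first damage array (adjusted p = 0.033) and with only the compared pair of conditions in the fit (adjusted p = 0.043).

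LHX2, a LIM-homeodomain factor of eye field and cortex, read from 4.37 to 4.42 on the damage and on the differentiating arrays, against 4.29 to 4.37 on the pluripotent arrays, on its brighter probe set. Its change was 0.06 after DOX and 0.06 after RA, with 95% intervals of −0.08 to 0.19 and −0.08 to 0.20. LHX5, a LIM-homeodomain factor of the developing forebrain, read 4.08 to 4.34 after DOX and 4.24 to 4.34 after RA, against 4.19 to 4.27 in pluripotent cells. Its change was −0.06 after DOX (95% interval −0.24 to 0.12) and 0.04 after RA (95% interval −0.14 to 0.22). Each probe set of LHX2 and LHX5 was below the array median on all 9 arrays, so no expression of either gene was shown in any condition.

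On their brightest probe sets the broader progenitor factors also stayed near the median. PAX6, a paired-box factor of eye and neural tube, read 4.39, 4.72 and 4.61 after DOX and 4.77, 4.46 and 4.36 after RA, against 4.75, 4.81 and 4.94 in pluripotent cells on its brighter probe set. The damage arrays lay below the pluripotent arrays and the differentiating arrays overlapped them. The change was −0.26 ± 0.12 after DOX (SE, limma adjusted p = 0.19) and −0.30 ± 0.12 after RA (adjusted p = 0.20). Its dimmer probe set, at 2.56 to 2.91, had values of 0.06 and 0.17, opposite in sign. SOX1, an early factor of the neural plate, read 4.68, 4.56 and 5.06 after DOX and 4.97, 4.68 and 4.71 after RA, against 4.29, 4.52 and 4.79 in pluripotent cells on the brightest of its 3 probe sets. Its conditions overlapped, with values of 0.23 ± 0.15 after DOX (adjusted p = 0.36) and 0.25 ± 0.15 after RA (adjusted p = 0.46). The other probe sets of SOX1, at 3.32 to 3.58 and 2.94 to 3.39, were below the array median on all arrays. They gave 0.06 and 0.19 after DOX and 0.01 and 0.13 after RA, also not called.

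**Figure D3:**
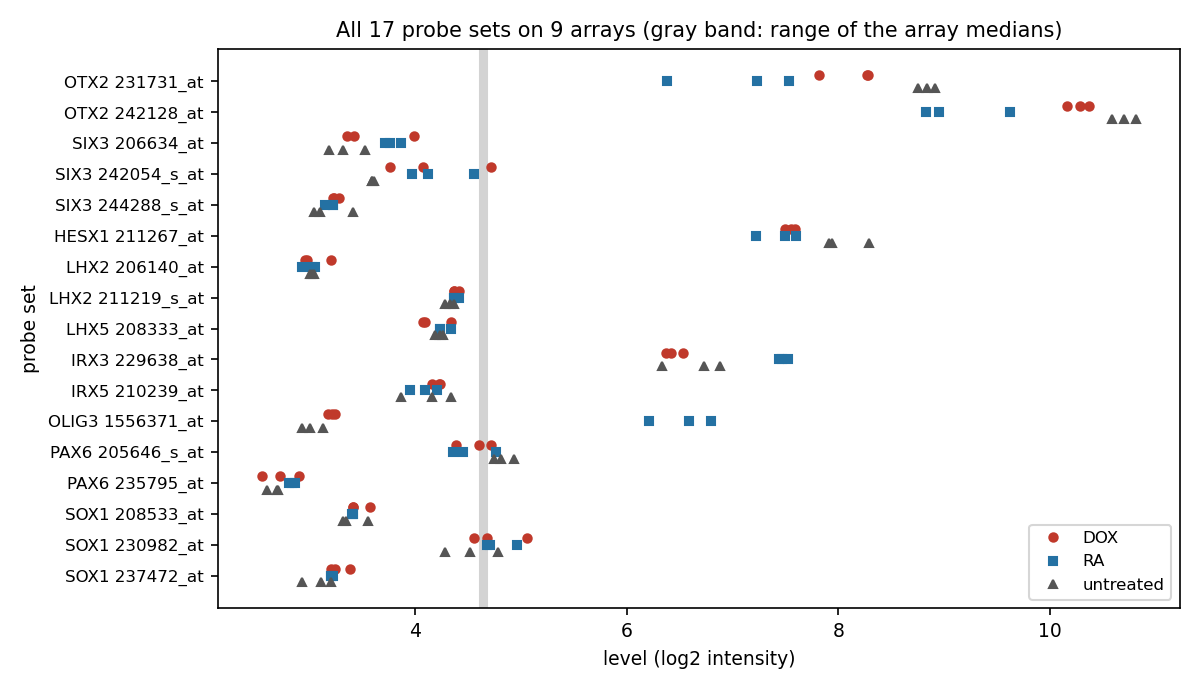
Level (log2 intensity) of all 17 probe sets (rows) on the 9 arrays, with DOX as circles, RA as squares and untreated cells as triangles; the gray band spans the array medians. The 4 probe sets of OTX2, HESX1 and IRX3 lie right of the band on every array, OLIG3 crosses it with RA, and 9 of the 12 probe sets of the 6 uncalled factors lie left of it throughout.

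Taken by position along the neural axis, 2 of the 5 anterior factors fell after RA and 0 rose, while 2 of the 3 posterior or dorsal factors rose and 0 fell. The 2 that fell, OTX2 and HESX1, were already above the array median in pluripotent cells. The median change after RA was 0.04 for the anterior factors, beside 0.00 for all genes. For the 3 posterior or dorsal factors it was 0.83, which is the value of IRX3, between −0.04 for IRX5 and 3.50 for OLIG3. Among other measured genes it was 0.04 for 18 factors of midbrain, hindbrain and spinal cord and 0.01 for 13 dorsal neural factors. SIX3, LHX2 and LHX5, the dim anterior members, had values of 0.62, 0.06 and 0.04, none called. After DOX 1 of the 5 anterior factors fell and 0 rose, and none of the 3 posterior or dorsal factors was called by limma (0 of 3 at an unadjusted p under 0.05). The 3 factors with limma's unadjusted p under 0.05 after DOX were all anterior, with HESX1 and OTX2 lower and SIX3 higher. The median change after DOX was −0.06 for the anterior and 0.08 for the posterior or dorsal factors. Of the 19775 genes, 3.16% were called higher and 3.32% lower after RA, and 5.67% higher and 9.6% lower after DOX. Over probe sets, 5 of the 17 were called after RA, 2 higher and 3 lower, where 2.95% of all probe sets were called, 1.47% higher and 1.48% lower. After DOX 1 of the 17 was called, where 7.71% of all probe sets were. Treated and pluripotent arrays did not overlap for 5 of the 10 genes after RA and for 5 after DOX, where 22.6% and 28.9% of all genes did not.

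The differentiating arrays were also set directly against the damage arrays, which uses no pluripotent array. Of the 10 factors 3 differed, 1 lower and 2 higher, where 21.2% of all genes were called, 8.62% lower and 12.6% higher. OTX2 was lower with RA than with DOX by −1.13 ± 0.17 (SE, limma adjusted p = 0.00072), and its second probe set by −1.08 ± 0.24 (adjusted p = 0.014 over all probe sets). OLIG3 was higher with RA by 3.32 ± 0.13 (adjusted p = 2.6e-08), the 5th highest of all genes, and IRX3 by 1.04 ± 0.12 (adjusted p = 0.00012). For HESX1 the difference was −0.11 ± 0.12 (adjusted p = 0.60, 95% interval −0.37 to 0.15). The levels of OTX2 were therefore in the order pluripotent, DOX, RA from the top, with the step from pluripotent to DOX not past the test. For HESX1 the difference between RA and DOX did not pass limma's test, and for IRX3 and OLIG3 that between DOX and pluripotent did not.

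Over the 9 arrays and among 4376 genes that differed between the conditions by limma's moderated F test, the genes whose levels ran most like OTX2 were TNMD, FEZ1 and FZD5, with Pearson's r of 0.987, 0.985 and 0.985. TNMD encodes a membrane glycoprotein of tendon, FEZ1 an adaptor for axonal transport and FZD5 a WNT receptor. Their changes after RA were −1.38, −1.23 and −0.82, and after DOX −0.40, −0.28 and −0.20. Most like OLIG3 were SKAP2, an adaptor of SRC-family kinases, TNS3, a focal adhesion protein, and MEIS2, a homeobox cofactor, each with r = 0.995. Their changes after RA were 3.87, 1.01 and 4.18, and after DOX 0.12, 0.08 and 0.41. MEIS2 was called after DOX, unlike OLIG3. That call was lost with the replicate block (limma adjusted p = 0.074) and without most single arrays. These correlations describe the difference between the conditions, which all genes on the arrays share, and the genes had been picked for differing.

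The genes next to the called factors on the chromosome were looked up after the factors' values were known. Of the 8 nearest measured protein-coding neighbours of OTX2, HESX1, IRX3 and OLIG3, 1 rose and 0 fell after RA, and 1 rose and 1 fell after DOX. Over all genes, 6.47% were called after RA and 15.3% after DOX. With so few neighbours these counts only describe them. IL17RD, an FGF signalling inhibitor that lies beside HESX1, rose after RA by 0.68 ± 0.08 (SE, limma adjusted p = 0.00055), while HESX1 fell. APPL1, on the other side of HESX1, fell after DOX by 0.27 (adjusted p = 0.049), a call lost on leaving out any of 8 of the 9 arrays. TNFAIP3, the NF-κB feedback gene beside OLIG3, rose after DOX by 0.90 ± 0.18 (adjusted p = 0.0058). For IRX3 the neighbours were FTO, with −0.11 after RA and −0.13 after DOX, and IRX5. For OTX2 they were TMEM260 and EXOC5, with −0.09 and −0.05 after RA.

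The other genes of neural patterning were grouped by where they act into 4 lists with 61 measured genes. Of these, 5 rose and 4 fell after RA (9 of 61, where 6.47% of all genes were called), and 4 rose and 6 fell after DOX (10 of 61, where 15.3% of all genes were called). Of 14 measured forebrain factors of 19 listed, limma called 0 after either treatment, and 10 of the 14 were below the array median on every array. Their median change was −0.04 after RA and 0.09 after DOX. With the mean of all probe sets 1 forebrain factor was called higher after DOX. RAX, the eye field factor, had the highest value after RA, 0.27 (adjusted p = 0.11), at a level of 5.69, against 5.42 in pluripotent cells. Of 18 measured factors of midbrain, hindbrain and spinal cord, 1 rose after RA and 0 fell. That gene was HOXB2, a hindbrain HOX gene, at 1.61 ± 0.17 (SE, limma adjusted p = 0.00019), with a mean level of 4.79 after DOX and 5.83 after RA, against 4.22 in pluripotent cells. After DOX it was at 0.57 (adjusted p = 0.048), a call lost on leaving out any of 7 of the 9 arrays. GBX2, which opposes OTX2 at the boundary of midbrain and hindbrain, was at 0.17 after RA (adjusted p = 0.54) and below the array median in its means, and IRX1, IRX2 and IRX4, further Iroquois genes, were at 0.10, 0.13 and −0.01, none called.

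Among 13 measured dorsal neural factors 2 rose and 1 fell after RA, and 1 rose and 2 fell after DOX. The DOX rise and 1 of the RA rises were of ZIC1, a relative of ZIC2, at 0.46 after RA (limma adjusted p = 0.044) and 0.40 after DOX (adjusted p = 0.042). These calls were lost with the mean of all probe sets, where ZIC1 was at 0.16 after RA and 0.14 after DOX, and on leaving out any of 7 arrays for RA and any of 6 for DOX. ZIC5, also of the ZIC family, fell after DOX, at −0.56 (adjusted p = 0.017), a call lost without the third damage array or the first or second pluripotent array. ZIC2, a zinc finger factor of the neural plate that is also expressed in pluripotent cells, fell most. Its mean level was 10.51 ± 0.04 after DOX and 10.28 ± 0.17 after RA, against 11.72 ± 0.04 in pluripotent cells (SD, n = 3 arrays each). The changes were −1.21 ± 0.09 after DOX (SE, limma adjusted p = 4.8e-06) and −1.44 ± 0.09 after RA (adjusted p = 2.7e-06). MSX2, a homeobox factor of the dorsal midline and a target of BMP signalling, rose by 1.30 ± 0.14 after RA (adjusted p = 0.00017), but by 0.22 and without a call when probe sets ending in x_at or s_at were left out. PAX3 and PAX7, the paired-box factors of the dorsal neural tube, were at 0.05 and 0.07 after RA, neither called.

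Of 16 neural progenitor genes, 2 rose and 3 fell after RA, and 2 rose and 4 fell after DOX. With the mean of all probe sets 1 rose and 2 fell after DOX. POU3F2, a POU-domain factor of neural progenitors, and DACH1 were the genes that rose after RA. Their means after RA were 4.36 and 4.44, against 3.85 and 3.94 in pluripotent cells, all below the array median. POU3F2 lost its DOX call without the third damage or the second pluripotent array. With the mean of all probe sets it was at 0.07 after DOX (limma adjusted p = 0.64). DACH1 lost its RA call without the first differentiating array. FABP7, which fell after RA, at −0.44, lost that call with the mean of all probe sets (−0.22, adjusted p = 0.26). NES, the intermediate filament nestin, moved in opposite directions. Its mean level was 10.73 ± 0.09 after DOX and 9.03 ± 0.11 after RA, against 9.79 ± 0.12 in pluripotent cells (SD, n = 3 arrays each). It rose by 0.94 ± 0.09 after DOX (SE, limma adjusted p = 4.6e-05) and fell after RA, at −0.76 ± 0.09 (adjusted p = 0.00033). CDH2, which encodes N-cadherin, the adhesion molecule that neural cells turn on, fell after RA, at −1.23 ± 0.09 (adjusted p = 1.6e-05). SOX2, the SOX1 paralog shared by pluripotent and neural cells, fell after DOX, at −0.46 ± 0.08 (adjusted p = 0.0024), and was at −0.10 after RA (adjusted p = 0.62). Among 13 measured family relatives of the 10 factors, limma called 0 after RA and 2 after DOX, both lower, namely SOX2 and OLIG1, with OLIG1 at 3.13 after DOX, against 3.47 in pluripotent cells, both below the array median. The OLIG1 call (adjusted p = 0.038) was lost on leaving out any of 7 of the 9 arrays.

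**Figure D4:**
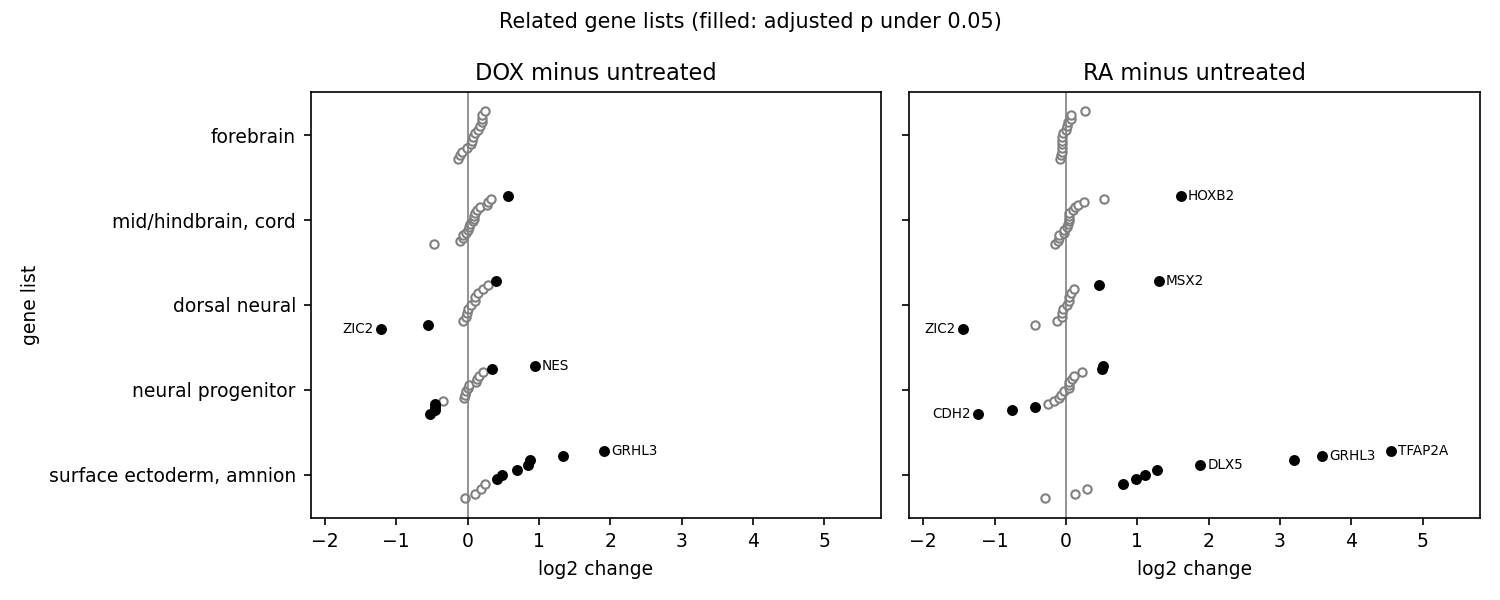
Log2 change of every measured gene in 4 lists of neural genes and in the list of surface ectoderm and amnion markers, after DOX (left) and after RA (right); each point is a gene and filled points have an adjusted p under 0.05. The forebrain list has no filled point, HOXB2, MSX2 and ZIC2 stand out in their lists, and surface ectoderm and amnion markers reach 4.55 (TFAP2A) after RA.

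Markers of other cell types moved on the same arrays, and their part in the results above was not tested. Of 11 measured markers of surface ectoderm and amnion 8 rose after RA and 7 after DOX, and 0 fell after either. TFAP2A had the highest change after RA, 4.55, and GRHL3 after DOX, 1.91, where TFAP2A was at 0.85. Without x_at and s_at probe sets 4 rose after DOX. Their summed linear level was 5487 to 5523 on the damage arrays and 6244 to 7695 on the differentiating arrays, against 3974 to 4082 on the pluripotent arrays, with 8 of the 11 above the array median on all arrays. Of 10 measured neuron markers 0 rose and 1 fell after RA, which was STMN2, at −0.86 (adjusted p = 0.0024), and limma called 0 after DOX. With the mean of all probe sets 3 neuron markers fell after RA, and 1 rose and 2 fell after DOX. Of 8 neural crest markers 0 rose and 2 fell after RA, and 2 rose and 2 fell after DOX. Of 10 mesendoderm markers 1 rose and 1 fell after RA, HHEX at 3.29 and CER1 at −1.05, and 1 rose after DOX, CER1 at 1.97. TAGLN, an actin-binding stromal gene, was among 10 fibroblast and stromal markers, of which 2 rose and 2 fell after RA and 4 rose after DOX. Without x_at and s_at probe sets limma called 0 after RA and 2 after DOX, and the calls of THY1, 1 of those that fell after RA and rose after DOX, were lost without most single arrays. Their summed levels were 9313 to 9811 after DOX and 4309 to 4538 after RA, against 4359 to 4493 in pluripotent cells. Of the 8 pluripotency markers 2 fell after RA, PRDM14 at −1.29 and NANOG at −0.34, and limma called 0 after DOX. After RA 0 were called higher, but 3 were under another estimate of the spread. The summed level of the 8 markers was 40410 to 42860 after RA, against 36970 to 38070 in pluripotent cells. After DOX that sum was 33680 to 35730. Their median change was 0.1 after RA and −0.11 after DOX. The NANOG call (adjusted p = 0.036) was lost on leaving out any of 7 of the 9 arrays.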

How the data were processed

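RNA was measured on 1-colour Affymetrix arrays, 3 for each of 3 conditions, and the array titles gave condition and replicate number. The deposited values are log2 intensities per probe set, made by the authors with RMA and the affy package, per the submitters' processing notes. The sources used here name no versions for them. The log2 scale was read from the range of the values, 2.36 to 14.84. RMA corrects background, normalises arrays to one distribution by quantiles and summarises probes by median polish. This compresses differences between dim levels and removes a shift shared by most genes.

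The 62 Affymetrix controls among the 54675 probe sets did not enter. The platform annotation gave 1 gene for 41091 probe sets, several for 1801 and none for 11721. Of those with 1 gene, 41037 matched RefSeq (GRCh38.p14) by Entrez identifier. Where a gene had several probe sets, the brightest by its mean over all 9 arrays stood for it.

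A linear model with the 3 conditions was fitted to all 19775 genes with limma 3.58.1 in R 4.3.3 (lmFit, eBayes, 6 residual and 4.63 prior degrees of freedom, no filter on low values), and again to all 54613 probe sets. P-values were adjusted by the Benjamini-Hochberg method. The fit was also run on simulated data with independent arrays. That run cannot show how the fit behaves where arrays share a replicate. Arrays of a condition correlated at 0.994 to 0.997 and no 2 arrays were identical.

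The members, gene lists and settings were chosen with earlier results of these data known. Genes named besides the members were, per list, taken from those with the largest called changes, not all of which are named. Others were the treatment targets and the genes correlated best with OTX2 and OLIG3, which had the smallest F-test p of their class. Exceptions were picked after their values were seen: RAX, GBX2, IRX1, IRX2, IRX4, PAX3, PAX7, FABP7 and the chromosomal neighbours. Alternatives changed the probe set taken for a gene, and further ones were a filter on dim genes, another spread, fewer samples, array weights, 2 renormalizations, a replicate block and leaving out each array.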

Additional observations from a re-analysis of the deposited data

How the results depend on the processing

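Each of the 30 changes (10 factors, 3 comparisons) was recomputed under up to 18 other settings, 519 values in all, of which 488 kept their direction and their side of the threshold. OTX2, OLIG3 and IRX3 did so in every setting that tested them after RA and in RA against DOX, and HESX1 after RA, where it lay between −0.68 and −0.48. OTX2 lay between −1.80 and −1.41 after RA, IRX3 between 0.67 and 0.95 and OLIG3 between 3.37 and 3.67. OLIG3 and the 6 uncalled factors are below the median of all genes and were not tested in the setting that keeps brighter genes. After DOX the number of factors called was 2 with only the compared conditions in the fit, where OTX2 was at −0.43 with a call, and 0 to 2 when 1 array was left out. Leaving out 1 array gave DOX values of −0.57 to −0.38 for HESX1, −0.49 to −0.37 for OTX2, −0.37 to −0.09 for IRX3, 0.32 to 0.80 for SIX3 and −0.04 to 0.19 for IRX5. It gave RA values of 0.45 to 0.74 for SIX3 and −0.16 to 0.07 for IRX5. In RA against DOX it gave −0.18 to 0.30 for SIX3, −0.19 to 0.00 for HESX1, −0.02 to 0.02 for LHX2, −0.16 to 0.04 for PAX6 and −0.09 to 0.16 for SOX1. With only the compared conditions SIX3 was called after RA, at 0.62. Without probe sets ending in x_at and s_at, 852 genes were called after RA, against 1280, where fewer genes were tested and other probe sets stood for some genes. PAX6 was then at 0.06 after DOX, 0.17 after RA and 0.11 in RA against DOX, and LHX2 at −0.01 after RA and −0.04 in RA against DOX. With the mean of all probe sets LHX2, PAX6 and SOX1 were at −0.02, 0.03 and −0.03 in RA against DOX, and with array weights SIX3 was at −0.00 there. All 24 changes of sign were of values without a call, and where no construction shows the cause, it was not tested. Of other genes named, TAGLN was at 0.05 after RA without x_at and s_at probe sets, against −1.76, RARB was at −0.00 after DOX with a further quantile normalization and between −0.15 and 0.17 when 1 array was left out, and TNFAIP3 was between −0.03 (without the second differentiating array) and 0.21 after RA when 1 array was left out.

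The labels number the arrays alike in each condition. Deviations from the group means correlated at −0.069 to 0.227 between same-numbered arrays, above 0.1 for 4 of 9 pairs, and in 14 of 18 cases an array correlated best with its own number, a hint from the data of shared replicates. Not every same-numbered pair was above 0.1 and the labels name nothing shared, so pairing was not taken as established. With the replicate block, 3081 genes were called after DOX, 1287 after RA and 4296 in RA against DOX, where the fit without it gave 3019, 1280 and 4202. All 30 changes of the factors and all 51 of their probe sets stayed on their side of the threshold with the replicate block, OTX2 at −1.56 after RA and OLIG3 at 3.50. ZIC1 lost its calls with it, so the dorsal list had 1 gene higher after RA and 0 after DOX.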
